A study of Homo sapiens with 7 samples.

Results

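A pair of untreated wild-type libraries of PF-382, labelled SA19 and SA28, was compared, which makes 2 of the 7 RNA libraries of the series. PF-382 is a human line from T-cell acute lymphoblastic leukaemia, or T-ALL. The labels call both libraries wild type and untreated, give the same medium for both, and do not say whether they are clones, passages or separate cultures. The series asked what loss of STAG2, part of cohesin, which pairs sister chromatids and folds chromatin into loops, does to leukaemia cells. Its other PF-382 libraries are 3 STAG2 knockouts made by delivering Cas9 with its guide as a ribonucleoprotein (SA20, SB23 and SB37), also grown with no drug. A MOLT-14 pair, 1 with an empty vector and 1 with STAG2, was not used here. The pair is defined by its labels alone. Since each side is 1 library, no test was possible: ratios are given with exact binomial 95% intervals, which cover counting error only, and no difference has a replicate check.

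Several programmes are useful for reading such a pair. The RAG1 and RAG2 proteins cut DNA at antigen receptor genes in developing lymphocytes, and their level falls and returns as thymocytes move between stages. ATF4 is translated when amino acids run short or proteins misfold, and it switches on amino acid transporters and synthetic enzymes. Metallothioneins bind zinc and copper and are switched on by the metal-sensing factor MTF1, heat shock genes by HSF1, and mitotic genes rise as cells enter G2 and M phase. Small nuclear and nucleolar RNAs are short, structured and mostly not polyadenylated, so a total RNA library records them only as far as its size selection keeps them.

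The libraries held 32609475 (SA19) and 33145482 (SA28) counts in genes, and the knockouts 65262298, 93970572 and 81304941. STAG2, the gene targeted in the knockouts, stood at 305 CPM (counts scaled to a common library size) in SA19, 518 in SA28, and 242, 171 and 185 in SA20, SB23 and SB37. The knockouts were thus below both wild types, a position shared by 2196 of 10824 genes at 5 CPM or more in either wild type. STAG2 RNA was still present in them. Of 15 T-cell identity markers 13 reached 5 CPM in either wild-type library. CD3D stood at 401 and 640 CPM, LCK, the receptor-proximal kinase, at 1073 and 1099, and BCL11B, a T-lineage factor, at 379 and 447. CD2 (0.571 and 1.57 CPM) and IL7R (0.0286 and 0.296) stayed under that level. The same T-cell receptor segment led in both libraries, TRBV20-1 with 697 CPM in SA19 and 1168 in SA28, beside TRBC2 with 1475 and 2492.

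Markers of other cells were mostly low. At least 5 CPM in either library was reached by 1 of 14 B-lineage, 6 of 20 myeloid, 1 of 15 natural killer, 1 of 18 erythroid and megakaryocyte and 3 of 18 stromal and epithelial markers, and 4, 10, 6, 12 and 6 of them were at 0 in both. The summed B-lineage level was 39.6 CPM in SA19 and 9.42 in SA28, almost all of it CD79A (34.1 and 6.34 CPM). The summed myeloid level was 117 and 118 CPM, with the granule protease CTSG at 21.3 and 4.41 CPM and the integrin ITGAM at 9.31 and 18.5. Their part in the results below was not tested.

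Of 10824 genes at 5 CPM or more in 1 or both libraries, 716 differed by more than 2-fold, which is 6.61%. Of these 196 (1.81%) were higher in SA28 and 520 (4.8%) were higher in SA19, and the median log2 ratio of SA28 over SA19 was 0.04. These 2 shares over all genes are the background for the counts of list members given below. In the lists and over all genes alike, a gene under 5 CPM in 1 library enters through the other alone. The filter thus favours low genes that differ. Calls towards SA28 made up 27.4% of the 716, and 38.5% with upper-quartile factors, 74.8% on the authors' TPM values as deposited, 27.9% on TPM centred on the count median and 47.1% after adjustment for level and GC content. Among 10026 protein-coding genes 593 (5.91%) differed, 180 (1.8%) towards SA28 and 413 (4.12%) towards SA19. Measured the same way, the 3 pairs of knockout libraries differed in 1.3% (SA20 and SB23), 1.21% (SA20 and SB37) and 0.978% (SB23 and SB37) of genes. The median absolute log2 ratio was 0.296 between the wild types and 0.114 to 0.137 between knockouts. Over protein-coding genes the log2 CPM values correlated with r of 0.949 between the wild types and 0.985 to 0.989 between knockouts, across genes, which are not independent replicates. The 2 wild-type libraries were thus farther apart than any 2 knockout libraries, and the knockouts were also sequenced more deeply.

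**Figure D1:**
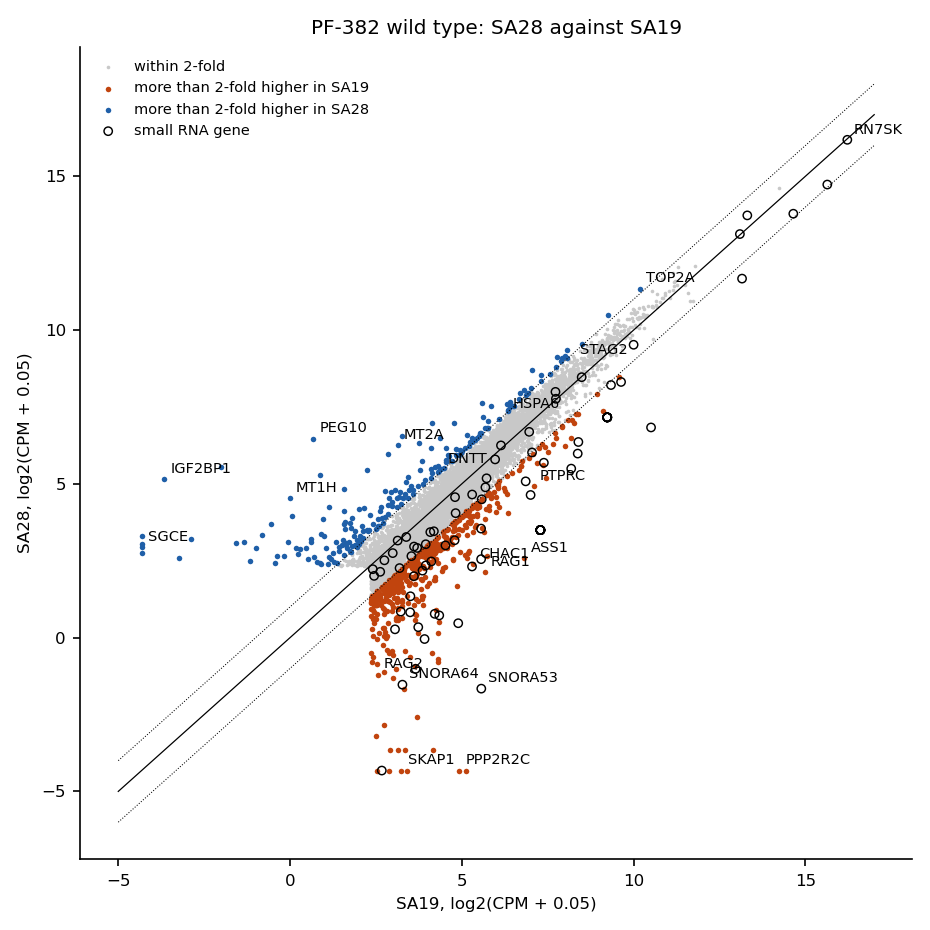
Level of each of the 10824 genes in SA19 (horizontal) and SA28 (vertical), as log2(CPM + 0.05), with dotted lines at 2-fold. More genes lie below the lower line (520, higher in SA19) than above the upper one (196, higher in SA28), and open circles mark the small RNA genes, 54 of which are below it.

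The ratio followed base composition and level. GC content was that of the longest transcript of each gene. Protein-coding genes in the lowest of 5 equal groups by it (31.32% to 40.41%) had a median log2 ratio of 0.22, and those in the highest (57.61% to 73.94%) one of -0.28. Spearman's rho between GC content and the ratio was -0.385 over 10013 genes, a description across genes that share their libraries. Between knockout libraries the same rho was -0.376, -0.099 and 0.305 (SA20 over SB23, SA20 over SB37, SB23 over SB37). By mean level, the lowest of 5 groups had a median of -0.28 and the highest one of 0.26 (rho 0.389). The fragment length implied by the authors' TPM values was 168 bases in SA19, 180 in SA28 and 198 to 210 in the knockouts. List medians below are therefore given also after the median of genes of like level and GC content was taken away, as the adjusted median. The part of composition, level and fragment length in the differences was not tested otherwise.

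**Figure D2:**
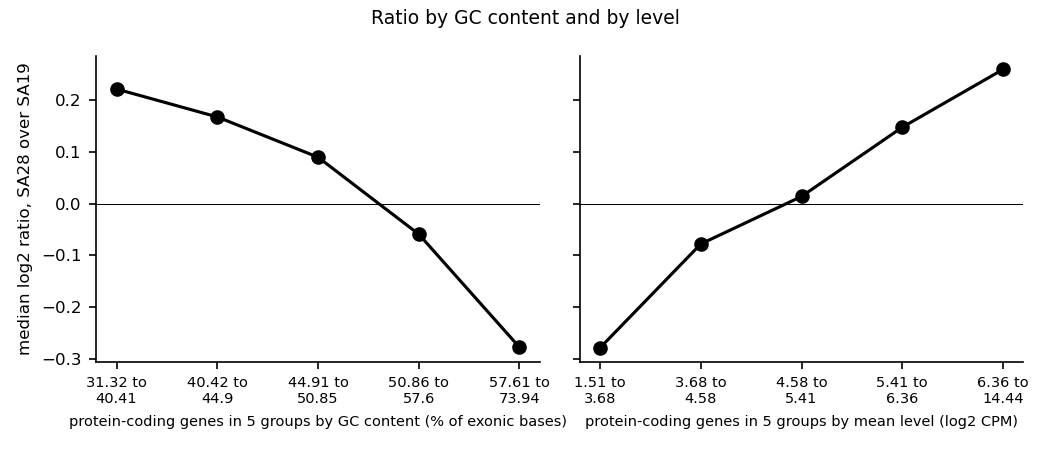
Median log2 ratio of SA28 over SA19 in 5 equal groups of protein-coding genes by exonic GC content of the longest transcript (left) and by mean level (right). It falls from 0.22 to -0.28 with GC content and rises from -0.28 to 0.26 with level.

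The lymphoid recombinase genes were among the largest differences. RAG1, which carries the catalytic site of the recombinase (chr11:36510709-36593156, GRCh38, plus strand), stood at 50.7 CPM in SA19 and 4.35 in SA28. The knockouts held 193, 157 and 311 CPM, so SA28 was the lowest of the 5 libraries and SA19 lay between it and the knockouts. The log2 ratio of SA28 over SA19 was -3.52 (-3.79 to -3.30), or 11.5-fold. RAG2, the neighbouring accessory subunit (chr11:36575574-36598279, minus strand), stood at 5.80 CPM in SA19 and 0.385 in SA28, against 5.53, 7.08 and 15.5 in the knockouts. Its log2 ratio was -3.72 (-4.85 to -3.11), and SA19 fell within the range of the knockouts while SA28 was below it. After adjustment for level and GC content the log2 ratio of RAG1 was -3.53. In bulk RNA, fewer cells with a transcript and less of it per cell cannot be told apart, here and in the results that follow.

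The rest of the V(D)J machinery did not share the direction of the RAG pair. Of 18 V(D)J recombination and pre-TCR genes, 1 (5.56%) was more than 2-fold higher in SA28 and 3 (16.7%) in SA19, against 1.81% and 4.8% of all genes. The median log2 ratio was positive at 0.42 (adjusted 0.21), but the mean was negative at -0.20. DNTT, the polymerase that adds untemplated bases at junctions, was the member higher in SA28, at 44.6 CPM against 21.2 in SA19, and 2.60, 6.59 and 11.5 in the knockouts. Its log2 ratio was 1.07 (0.95 to 1.20), the opposite direction to RAG1. The end-joining genes lay within 2-fold: LIG4 had 37.7 and 36.7 CPM, PRKDC 324 and 468, XRCC5 549 and 739, and XRCC6 420 and 572. HMGB1 and HMGB2, chromatin proteins that help the recombinase bend DNA, were higher in SA28 by under 2-fold, at 1058 CPM against 594 and at 927 against 478. PTCRA, the pre-TCR alpha chain, stood at 37.2 and 49.5 CPM. The lipid-presenting CD1 molecules of cortical thymocytes were split: CD1C stood at 19.05 CPM in SA19 and 7.05 in SA28 and CD1E at 27.0 and 14.0, whereas CD1B stood at 28.7 and 51.9 and CD1A at 45.5 and 61.6.

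Surface molecules of T cells differed too, without a shared direction. PTPRC, which encodes the CD45 phosphatase, stood at 136 CPM in SA19 and 30.2 in SA28, and at 217, 235 and 215 in the knockouts. SA28 was thus the only library of the 5 under 100 CPM, and the log2 ratio was -2.17 (-2.27 to -2.08). CD7 was 35.4 and 10.0 CPM, CD8A 17.2 and 6.55 and CD6 36.4 and 16.8, all higher in SA19. CD28, the costimulatory receptor, went the other way at 1.49 and 8.50 CPM. Of 21 receptor and proximal signalling genes, 1 was more than 2-fold higher in SA28 and 4 in SA19, with a median of -0.22 (adjusted -0.35). LCK (1073 and 1099 CPM), ZAP70 (189 and 162) and CD3G (148 and 167) lay within 2-fold.

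Of the 12 T-ALL oncogenes and stem cell genes that reached 5 CPM, 4 (33.3%) were higher in SA28 by more than 2-fold and 1 (8.33%) in SA19. The shares over all genes were 1.81% and 4.8%. CD34, a progenitor surface marker, stood at 0.828 CPM in SA19 and 6.19 in SA28, ERG, an ETS factor, at 13.7 and 43.8, HHEX at 2.97 and 11.5, and FLT3, a receptor kinase of early progenitors, at 3.57 and 9.75. ERG and HHEX were low in every knockout library, at 2.75 to 8.15 and 0.0309 to 0.375 CPM, whereas CD34 there reached 3.54 to 10.5. TLX2, a homeobox factor, was the gene higher in SA19, at 6.83 CPM against 0.948, and 0.711 to 0.804 in the knockouts. CD34, HHEX and FLT3 passed the 5 CPM filter through SA28 alone, and TLX2 through SA19 alone. The shares of this list were thus partly set by the filter, and no conclusion is drawn from them. The list median was 0.52, and 0.23 with no minimum.

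The ATF4 programme was lower in SA28 as a group. Of 30 members, 27 had a negative log2 ratio, 14 were more than 2-fold higher in SA19 and 0 were more than 2-fold higher in SA28. The median log2 ratio was -0.94 (adjusted -1.05). The summed level of the list was 5541 CPM in SA19, 3453 in SA28 and 3303 to 3459 in the knockouts, so SA19 stood apart from the other 4 libraries. CHAC1, which degrades glutathione, stood at 40.3 CPM in SA19, 5.18 in SA28 and 3.85 to 5.14 in the knockouts, a log2 ratio of -2.94 (-3.19 to -2.73). SESN2, a stress-inducible inhibitor of mTORC1, stood at 64.4 and 20.7 CPM, and the 3 knockouts were at 10.7 to 12.02. SLC7A11, the cystine transporter, was 48.4 and 11.8 CPM, ATF3, a stress-induced transcription factor, 21.7 and 7.41, and ASNS, asparagine synthetase, 19.9 and 7.29.

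The transporters and synthetic enzymes of amino acids followed. SLC1A5 stood at 146 CPM in SA19 and 50.8 in SA28, SLC7A5 at 335 and 153 and its partner SLC3A2 at 319 and 153. PSAT1 and PSPH, enzymes of serine synthesis, stood at 295 and 136 and at 37.5 and 14.9 CPM. The aminoacyl-tRNA synthetases MARS and GARS of the list were 308 and 125 and 272 and 134 CPM. ASS1, which makes argininosuccinate from citrulline and is not in the list, was at 112 CPM in SA19, 5.95 in SA28 and 4.31 to 9.69 in the knockouts, a log2 ratio of -4.22 (-4.45 to -4.03). Genes of the endoplasmic reticulum unfolded protein response were split, with 14 positive and 10 negative ratios and a median of 0.15 (adjusted 0.055). Past 2-fold were 0 towards SA28 and 1 towards SA19 (EDEM1, 208 and 99.9 CPM). That is 4.17% of the list, near the 4.8% of all genes higher in SA19. Within 2-fold, the chaperone HSP90B1 (274 and 534 CPM) and MANF (65.1 and 109) had more in SA28, and HERPUD1 (98.5 and 55.5) and CRELD2 (23.5 and 14.6) had more in SA19.

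The promoters of 2 such genes are shown since members of the list moved together. Capitals mark matches to the C/EBP-ATF response element core TGATGNAA, sought on both strands in the 250 bases before each RefSeq start (GRCh38.p14): CHAC1, chr15:40953221-40953470, plus strand, with the match starting at -209, and ASNS, chr7:97872409-97872658, minus strand, the first of 2 listed starts, with the match at -68, counted from the transcription start.
CHAC1: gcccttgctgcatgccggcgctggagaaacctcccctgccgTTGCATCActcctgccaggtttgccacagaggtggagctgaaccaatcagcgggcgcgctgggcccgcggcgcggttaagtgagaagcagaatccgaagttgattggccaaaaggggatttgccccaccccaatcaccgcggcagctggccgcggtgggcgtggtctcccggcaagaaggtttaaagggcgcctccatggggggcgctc
ASNS: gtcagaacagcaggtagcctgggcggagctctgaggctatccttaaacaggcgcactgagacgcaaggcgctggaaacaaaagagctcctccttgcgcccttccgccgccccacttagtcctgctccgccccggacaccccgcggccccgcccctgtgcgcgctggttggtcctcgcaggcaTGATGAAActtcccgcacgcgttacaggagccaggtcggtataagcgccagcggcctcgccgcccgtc
Of the 20 members at 5 CPM or more with a listed promoter, 5 hold a match in any listed promoter, against 3.9% of all 27305 genes with one. A match describes these letters only.

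Metallothioneins had the highest median of all lists. Of 8 genes of the list at 5 CPM in either library, 5 were more than 2-fold higher in SA28 and 0 in SA19, with a median log2 ratio of 1.80 (adjusted 2.19) and a summed level of 71.9 CPM in SA19, 269 in SA28 and 48.2 to 59.4 in the knockouts. The median was 1.01 over members with whole counts alone and 2.74 with a minimum of 10 CPM. MT2A stood at 8.74 CPM in SA19 and 76.9 in SA28, against 7.59, 11.4 and 13.4 in the knockouts, a log2 ratio of 3.13 (2.97 to 3.31). SA28 was higher than each of the other 4 libraries. MT1X stood at 13.4 and 80.8 CPM, MT1G at 1.88 and 14.3, MT1H at 0.943 and 22.9 and MT1F at 3.77 and 7.64. SLC30A1, a zinc exporter, stood at 25.1 and 44.9 CPM and MTF1 at 12.4 and 15.7, both under 2-fold, and MT1E at 5.63 and 5.30. Genes of this family are near-identical in sequence, so reads may be shared between copies.

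The promoters of 3 members higher in SA28 by more than 2-fold are shown (MT1G, which differed more than MT1X, has no entry in the promoter table). Capitals mark matches to the metal response element cores TGCACNC and TGCGCNC on either strand: MT2A, chr16:56608334-56608583, plus strand, with 7 matches, MT1X, chr16:56682220-56682469, plus strand, with 4, and MT1H, chr16:56669564-56669813, plus strand, with 8.
MT2A: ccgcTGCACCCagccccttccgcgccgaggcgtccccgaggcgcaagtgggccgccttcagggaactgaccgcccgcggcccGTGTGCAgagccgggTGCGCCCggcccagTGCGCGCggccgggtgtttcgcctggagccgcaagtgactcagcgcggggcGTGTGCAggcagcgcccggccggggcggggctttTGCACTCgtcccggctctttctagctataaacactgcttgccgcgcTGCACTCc
MT1X: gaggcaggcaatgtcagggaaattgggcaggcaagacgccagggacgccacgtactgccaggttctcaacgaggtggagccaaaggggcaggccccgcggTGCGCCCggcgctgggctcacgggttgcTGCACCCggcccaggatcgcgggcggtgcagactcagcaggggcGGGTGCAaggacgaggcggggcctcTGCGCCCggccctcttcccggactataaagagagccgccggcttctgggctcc
MT1H: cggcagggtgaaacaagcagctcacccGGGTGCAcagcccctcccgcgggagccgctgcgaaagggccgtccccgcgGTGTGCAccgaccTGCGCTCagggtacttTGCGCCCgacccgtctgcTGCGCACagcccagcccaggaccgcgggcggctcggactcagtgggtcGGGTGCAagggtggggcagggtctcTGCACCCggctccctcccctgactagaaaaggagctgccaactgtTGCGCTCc
Among the 5 members with a listed promoter, 4 hold a match, against 28.5% of all genes with one, a common motif at this length. MTF1 is the one without. A match here too describes these letters only.

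Inducible heat shock genes were higher in SA28 as a group. Of 21 genes, 19 had a positive ratio, 3 were more than 2-fold higher in SA28 and 0 in SA19, and the median was 0.62 (adjusted 0.50). Their summed level was 3101 CPM in SA19, 4981 in SA28 and 3033 to 3515 in the knockouts, so SA19 lay within the range of the knockouts. Single members stood differently towards the knockouts. HSPA6, an HSP70 that is silent without stress in most cells, stood at 77.8 CPM in SA19 and 153 in SA28, but at 0.263, 0.230 and 0.0905 in the knockouts. The wild types did not overlap the knockouts, as was so for many genes. Of all 10824 genes, 2196 had every knockout below both wild types and 4779 had every knockout above both. The log2 ratio of HSPA6 in SA28 over SA19 was 0.98 (0.91 to 1.05). HSPA1A, whose near-identical copy HSPA1B shares its reads, stood at 378 and 652 CPM, and at 15.0, 32.3 and 59.7 in the knockouts. The mitochondrial chaperonin HSPD1, at 290 and 399 CPM, was instead below the knockouts (621 to 700), as were its partner HSPE1 (55.2 and 85.2 against 159 to 166) and DNAJA1 (114 and 151 against 260 to 293). DNAJB1, the HSP40 partner, stood at 239 and 550 CPM, DNAJB4 at 10.1 and 25.5 and HSPA4L at 23.1 and 51.8, the 3 members past 2-fold. HSP90AA1 was 434 and 777, BAG3 25.7 and 50.0, SERPINH1, a collagen chaperone, 49.5 and 90.1 CPM, and HSF1, the transcription factor, 62.1 and 62.1 CPM. Constitutive chaperones moved less, with 0 of 21 past 2-fold and a median of 0.31 (adjusted 0.03).

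The HSPA6 promoter (chr1:161524290-161524539, plus strand) is shown with heat shock elements GAANNTTC and TTCNNGAA in capitals, the matches starting at -180, -74 and -69, the last of which overlap.
HSPA6: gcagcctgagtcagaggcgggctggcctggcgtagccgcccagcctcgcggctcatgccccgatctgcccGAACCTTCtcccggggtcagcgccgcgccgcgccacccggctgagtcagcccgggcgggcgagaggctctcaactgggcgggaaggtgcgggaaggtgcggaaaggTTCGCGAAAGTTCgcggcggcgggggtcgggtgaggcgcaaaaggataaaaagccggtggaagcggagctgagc
Of 19 members with a listed promoter 12 hold such an element, against 14.0% of all genes with one. The list was drawn up by hand as heat shock genes, so this share says nothing about SA28 against SA19.

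Mitotic genes were higher in SA28 as a group. In the list of spindle, kinetochore and cytokinesis genes 41 of 42 members had a positive ratio, with a median log2 ratio of 0.67 (adjusted 0.44). Of the 30 mitotic kinases, cyclins and checkpoint genes 29 were positive, with a median of 0.55 (adjusted 0.42). Few crossed 2-fold: 4 (9.52%) and 1 (3.33%) towards SA28, against 1.81% of all genes, and 0 towards SA19 in either list. The summed level was 7296 CPM in SA19, 12591 in SA28 and 7812 to 8297 in the knockouts for the first list, and 4635, 7174 and 5103 to 5628 for the second. SA28 was thus above each of the other 4 libraries in both. TOP2A, which untangles chromosomes for segregation, stood at 1156 CPM in SA19 and 2599 in SA28, with 1363, 1360 and 1488 in the knockouts, a log2 ratio of 1.17 (1.15 to 1.19). DLGAP5, a spindle protein, stood at 159 and 372 CPM and 190, 194 and 220 in the knockouts, and the checkpoint kinase BUB1 at 213 and 447, with 269, 274 and 273. CDK1 was 270 and 523 CPM and CCNA2, its cyclin, 244 and 460. PKMYT1, which inhibits CDK1, was the member of the second list with a negative ratio.

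Replication genes moved less. Of 46 MCM, origin and fork genes, 1 was more than 2-fold higher in SA28 (CCNE2, 45.4 and 94.5 CPM) and 0 in SA19. That is 2.17% towards SA28, near the 1.81% of all genes. There were 36 positive ratios and a median of 0.23 (adjusted 0.15). The summed level of the list was 4639 CPM in SA19, 5690 in SA28 and 8481 to 9062 in the knockouts. Both wild types thus lay below the knockouts, as they did for 4779 of all 10824 genes. RRM2, a subunit of ribonucleotide reductase, was 207 and 381 CPM and MCM4 129 and 232. Histone genes of the replication-dependent kind had a median of 0.01 (adjusted -0.03) over 63 genes and 0 past 2-fold.

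The promoters of TOP2A (chr17:40417897-40418146, minus strand) and DLGAP5 (chr14:55191586-55191835, minus strand) are shown with matches to the cell cycle homology region core TTTGAA in capitals on either strand, at -194 and -151 and at -138 and -109.
TOP2A: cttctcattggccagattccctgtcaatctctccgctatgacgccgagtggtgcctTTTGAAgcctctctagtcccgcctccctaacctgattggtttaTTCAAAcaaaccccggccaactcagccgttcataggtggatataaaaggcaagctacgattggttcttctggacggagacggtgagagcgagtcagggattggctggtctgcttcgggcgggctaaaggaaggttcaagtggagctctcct
DLGAP5: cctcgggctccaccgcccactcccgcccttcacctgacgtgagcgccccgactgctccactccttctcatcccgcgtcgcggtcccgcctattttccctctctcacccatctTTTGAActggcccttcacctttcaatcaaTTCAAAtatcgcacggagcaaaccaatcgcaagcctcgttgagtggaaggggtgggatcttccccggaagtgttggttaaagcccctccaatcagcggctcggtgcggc
Of 38 spindle list members with a listed promoter 19 hold a match, against 16.1% of all genes with one. This list was also drawn up by hand, as mitotic genes, and its share says nothing about SA28 against SA19.

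Most immune response genes were lower in SA28. Of 22 interferon-stimulated genes 16 had a negative ratio and 6 a positive one, with a median of -0.50 (adjusted -0.48). Past 2-fold were 0 towards SA28 and 5 (22.7%) towards SA19, against 4.8% of all genes higher in SA19. OAS2, a sensor of double-stranded RNA, stood at 7.88 CPM in SA19 and 0.622 in SA28, with 5.22 to 8.14 in the knockouts, BST2, a restriction factor, at 16.8 and 4.86, and MX1, an antiviral GTPase, at 43.6 and 18.5. Of 12 MHC genes 11 had a negative ratio and 3 were past 2-fold towards SA19, with a median of -0.69 (adjusted -0.63). HLA-B stood at 486 and 240 CPM (136 to 223 in the knockouts), HLA-E at 240 and 115 and NLRC5, the activator of class I genes, at 15.7 and 5.78. B2M was the member with a positive ratio, at 1151 and 1667 CPM.

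The other lists varied. Oxidative stress genes of NRF2 had 13 of 14 ratios positive and a median of 0.51 (adjusted 0.41), with 2 past 2-fold, SLC48A1 (5.00 and 15.9 CPM) and PRDX1 (159 and 326), both higher in SA28. Hypoxia and glycolysis genes had 1 of 33 (3.03%) past 2-fold towards SA28 and 3 (9.09%) towards SA19, against 1.81% and 4.8% of all genes. Their median was -0.15 (adjusted -0.23), with VEGFA at 45.1 and 19.6 CPM and 3.29 to 3.31 in the knockouts. Immediate early genes had 12 of 17 ratios negative, 3 (17.6%) past 2-fold towards SA19 and a median of -0.51 (adjusted -0.21). The p53 targets had a median of -0.17 (adjusted -0.09) with 2 of 21 (9.52%) past 2-fold towards SA19. Ribosome proteins (83 genes, median 0.20, adjusted 0.02), ribosome biogenesis genes (34, -0.14, adjusted -0.14) and cohesin (21, 0.40, adjusted 0.16) had 0, 0 and 1 genes past 2-fold, the last being STAG3 (7.08 and 2.76 CPM), the meiotic partner. STAG3 is 4.76% of the cohesin list, near the 4.8% of all genes higher in SA19.

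**Figure D3:**
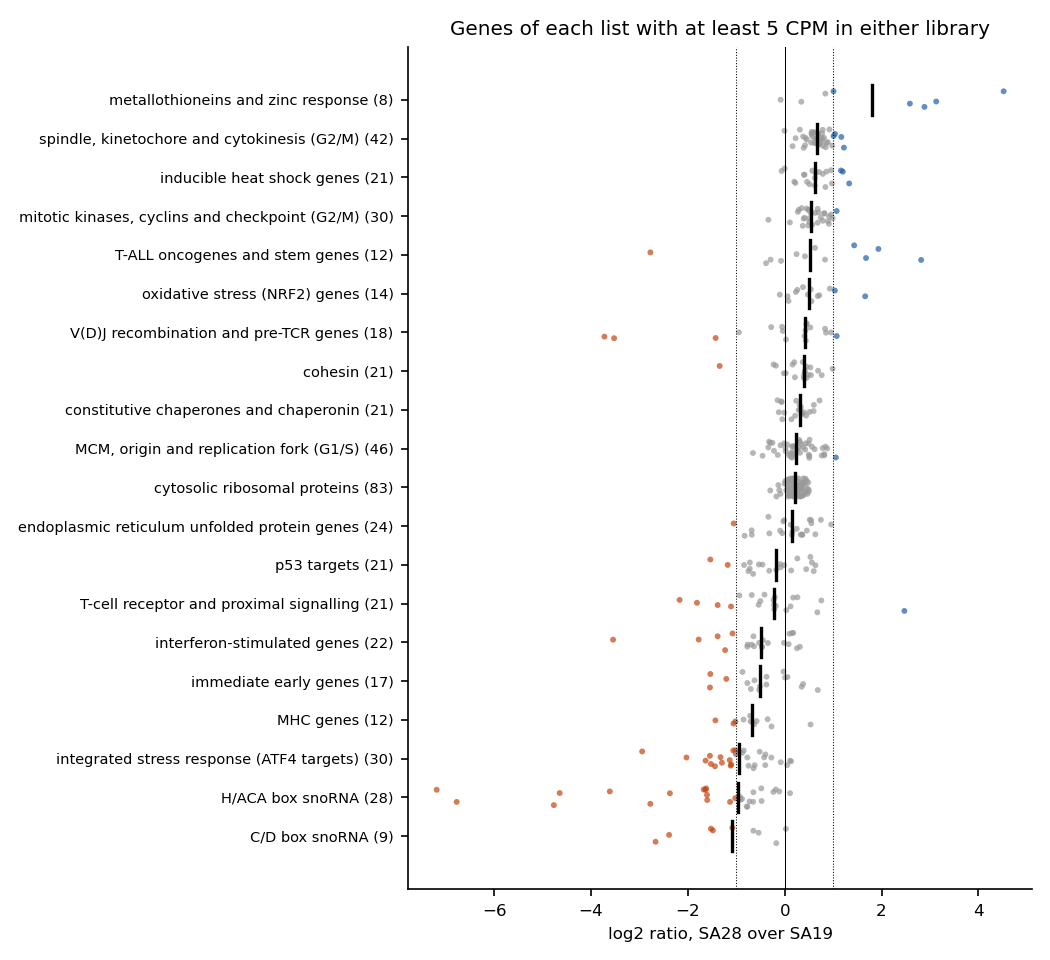
Log2 ratio of SA28 over SA19 for the members of 20 of the lists that reached 5 CPM in either library (the number in brackets). Black bars are medians, which in these 20 run from 1.80 for metallothioneins to -1.08 for C/D box snoRNA, and dotted lines mark 2-fold.

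Small RNA genes were the class with the most one-sided differences. They took 20.97% of all counts in SA19 (95% Wilson interval 20.95% to 20.98%) and 14.87% (14.86% to 14.88%) in SA28, with 11.96% to 13.98% in the knockouts. Of 85 such genes at 5 CPM or more, 54 were more than 2-fold higher in SA19 and 0 in SA28. Copies of U1 and U2 share evenly split counts, and over 67 distinct sets of counts 36 were higher in SA19. The sequences of the RNAs discussed next are GENCODE 29 transcripts (GRCh38), printed as DNA, with the ACA box of H/ACA snoRNAs (no ACA stands at that place in SNORA81) and the C and D boxes of a C/D snoRNA in capitals. They are shown since 2 of the H/ACA RNAs lie in introns of 1 host gene and still differ. SNORA53 lies at chr12:98599635-98599883, plus strand, SNORA64 at chr16:1962973-1963106, minus strand, SNORA81 at chr3:186786675-186786852, plus strand, SNORA63 at chr3:186787300-186787431, plus strand, SNORD17 at chr20:17962710-17962946, minus strand, and RNY1 at chr7:148987136-148987248, minus strand.
SNORA53: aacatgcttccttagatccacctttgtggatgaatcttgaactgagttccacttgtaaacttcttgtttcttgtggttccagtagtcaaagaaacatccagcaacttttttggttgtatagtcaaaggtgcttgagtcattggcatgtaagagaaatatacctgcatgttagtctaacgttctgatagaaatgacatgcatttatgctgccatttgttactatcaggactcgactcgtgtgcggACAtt
SNORA64: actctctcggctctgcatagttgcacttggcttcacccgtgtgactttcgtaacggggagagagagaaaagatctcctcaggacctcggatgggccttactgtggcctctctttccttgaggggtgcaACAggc
SNORA81: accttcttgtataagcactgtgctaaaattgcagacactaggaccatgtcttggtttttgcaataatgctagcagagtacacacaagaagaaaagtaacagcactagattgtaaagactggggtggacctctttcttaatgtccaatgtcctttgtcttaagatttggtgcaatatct
SNORA63: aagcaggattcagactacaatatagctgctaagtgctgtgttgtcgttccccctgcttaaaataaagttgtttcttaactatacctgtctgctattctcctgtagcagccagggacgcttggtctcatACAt
SNORD17: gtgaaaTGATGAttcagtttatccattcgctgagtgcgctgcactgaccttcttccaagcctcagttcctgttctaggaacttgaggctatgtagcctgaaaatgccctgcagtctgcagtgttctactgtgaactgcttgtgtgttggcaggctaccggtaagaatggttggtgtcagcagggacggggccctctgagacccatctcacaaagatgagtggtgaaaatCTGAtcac
RNY1: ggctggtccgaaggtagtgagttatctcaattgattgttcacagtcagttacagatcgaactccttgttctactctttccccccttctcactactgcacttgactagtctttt

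Among H/ACA snoRNAs, which guide pseudouridine formation, SNORA53 stood at 47.3 CPM in SA19, 0.267 in SA28 and 0.155 to 0.296 in the knockouts. The log2 ratio was -7.19 (-8.60 to -6.54). SNORA64 stood at 9.60 and 0.296 CPM. SNORA81 stood at 6.31 CPM in SA19 and at 0 counts in SA28 and the knockouts, at least 71.0-fold more in SA19 if a library at 0 is set to 3 counts. SNORA63, from another intron of the same host EIF4A2 and 132 bases long against 178, stood at 70.4 CPM in SA19 and 76.0 in SA28. SNORA81 was thus present in 1 library alone, while its neighbour did not differ by more than 2-fold. EIF4A2 itself was at 345 and 483 CPM. SNORD17, a C/D snoRNA, stood at 331 CPM in SA19, 63.2 in SA28 and 39.4 to 52.6 in the knockouts, and RNY1, a Y RNA, at 39.2, 4.92 and 3.35 to 5.997.

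Host transcripts did not follow their small RNAs. Among 42 snoRNA and Cajal body RNAs in hosts of at least 5 CPM, 22 were more than 2-fold higher in SA19, while 0 of 36 hosts differed by 2-fold (host range -0.91 to 0.92 on the log2 scale). The correlation of the 42 pairs was r -0.19 and rho -0.15, a description of pairs that share hosts. Of 33 snoRNP and snRNP protein genes 0 were past 2-fold.

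Spliceosomal RNAs differed more than the longer small RNAs. Summed over gene copies, U2 was 13.3-fold higher in SA19 (3169 and 238 CPM), U4 5.99-fold (418 and 69.9) and U1 4.18-fold (5747 and 1377). The Y RNAs, partners of the RO60 protein, were 3.68-fold higher (207 and 56.3 CPM), U3, which acts in ribosomal RNA cleavage, 2.75-fold (9232 and 3352) and telomerase RNA 3.43-fold (116 and 33.8). In SA19 each of these families was higher than in any of the other 4 libraries. SA28 lay close to the knockouts for U2 (170 to 249 CPM) and U3 (3115 to 4076) but above them for U1 (179 to 187). 7SL RNA, of the signal recognition particle, was 1.86-fold higher in SA19 (76580 and 41247 CPM). 7SK (76219 and 74414 CPM), RNase MRP RNA (8727 and 8898) and RNase P RNA (10133 and 13549) did not go with them.

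By length, the median log2 ratio over distinct sets of counts was -1.08 up to 150 bases (35 sets), -2.16 at 151 to 220 bases (11), -0.91 at 221 to 300 (11) and -0.20 above that (10). The medians did not follow length in order. The implied fragment length was also shortest in SA19 (168 bases), and its part in the small RNA difference was not tested.

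**Figure D4:**
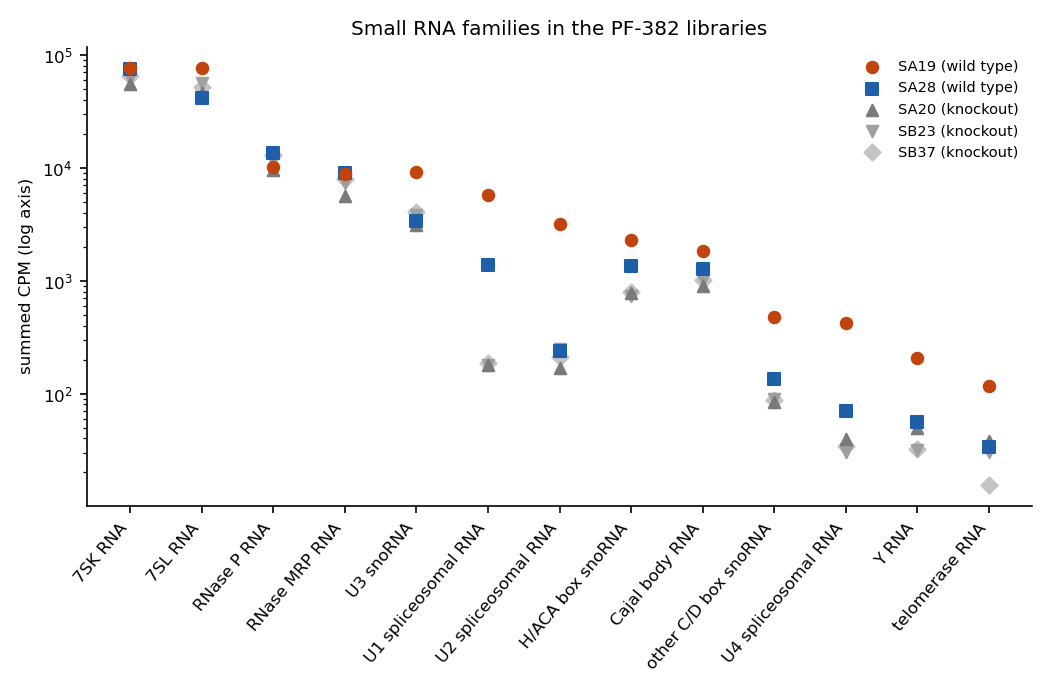
Summed CPM of 13 small RNA families in the 5 PF-382 libraries, on a log axis. SA19 lies above SA28 for the spliceosomal, Y, U3 and telomerase RNAs, by 2.75-fold to 13.3-fold, and at about the same level for 7SK and RNase MRP RNA.

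Some genes were present in 1 library and at or under 3 counts in the other. There were 13 such genes towards SA19 (11 of them protein-coding) and 7 towards SA28. Between knockout libraries there were 2 to 6, with the floor set at 0.0889 CPM, which is more than 3 counts in those deeper libraries. The genes of the wild-type pair were chosen after their values were seen. PPP2R2C, a regulatory subunit of protein phosphatase 2A, held 1056 counts in SA19 (30.2 CPM) and 0 in SA28, at least 339-fold higher, and 3.93 to 12.8 CPM in the knockouts. GSPT2, a translation termination factor, held 629 counts in SA19 and 1 in SA28 (log2 ratio -7.68, -14.55 to -6.76), and 22.3 to 24.4 CPM in the knockouts. PDCD1, the inhibitory receptor PD-1, was 6.57 CPM in SA19, 0.0889 in SA28 and 4.68 to 5.78 in the knockouts. In these 3 cases SA28 was the library without the RNA.

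The reverse held for IGF2BP1, an oncofetal RNA-binding protein, which held 1202 counts in SA28 (35.6 CPM), 1 in SA19, and 0 to 0.0773 CPM in the knockouts. CYTL1, a secreted protein, held 333 counts in SA28 and 0 in SA19 and in all 3 knockouts, at least 115-fold higher than SA19. ROBO1, an axon guidance receptor, stood at 0.0857 CPM in SA19, 9.12 in SA28 and 20.4 to 40.6 in the knockouts, so SA19 was the library without it. PEG10 and SGCE, divergent imprinted neighbours on chromosome 7 (PEG10 starting at 94656325 on the plus strand and SGCE at 94656572 on the minus strand), were both higher in SA28. PEG10 stood at 1.54 and 88.6 CPM and SGCE at 0 and 7.67. Among the knockouts SB23 held both (81.4 and 6.02 CPM), and SA20 and SB37 held PEG10 at 4.84 and 20.2 with SGCE at 0.0155 and 0 CPM. On chromosome 17, IGF2BP1 (48997412 to 49055650) lies between SKAP1, an adaptor of T-cell receptor signalling (48133440 to 48430275), and ABI3, an actin regulator (49210227 to 49223225). SKAP1 (9.40 CPM in SA19) and ABI3 (7.34 CPM) were both at 0 in SA28. In SA20, SB23 and SB37 SKAP1 stood at 2.43, 0.0549 and 5.38 CPM and ABI3 at 4.20, 0.0220 and 4.98. SB23 was thus also nearly without both. Other genes of this interval are not described here. The median log2 ratio by chromosome ran from -0.128 (chromosome 16) to 0.209 (chromosome 18), and from -0.003 to 0.107 after GC adjustment. A median over a whole chromosome cannot show a gain or loss of a part of it.

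Of the 13 genes towards SA19, 4 reached 1 CPM in all 3 knockouts, 5 in 1 or 2 and 4 in none, and of the 7 towards SA28 the numbers were 2, 3 and 2. Over all 520 genes higher in SA19 the knockout mean was nearer SA28 for 281 (54.0%), and over the 196 higher in SA28 it was nearer SA19 for 128 (65.3%), against 52.4% nearer SA19 over all genes. The knockout mean thus lay nearer SA19 for some of the differing genes and nearer SA28 for others. Genes picked as high in 1 library can lie nearer the other in a further group by that choice alone. The share over all genes is therefore no matched background, and no conclusion is drawn from these shares.

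**Figure D5:**
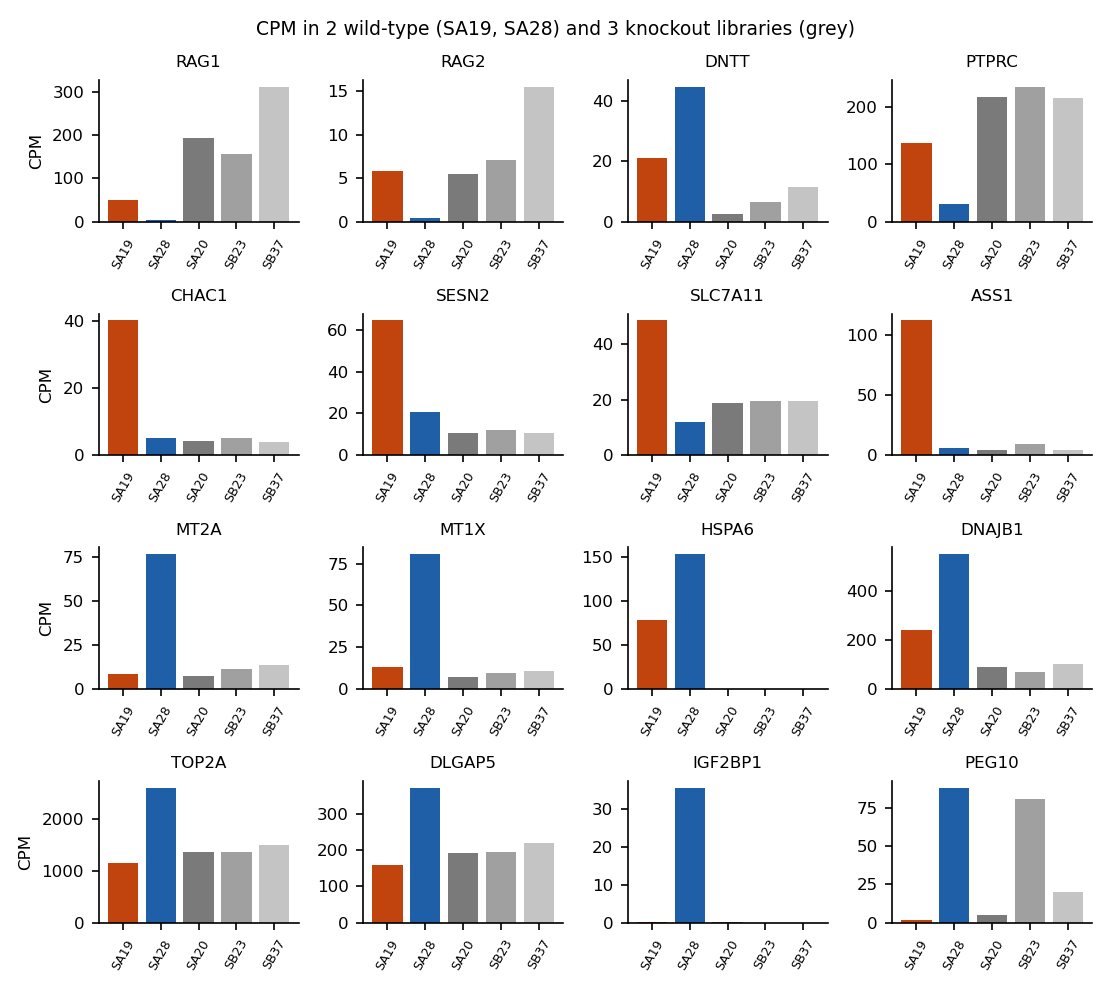
CPM of 16 genes in the 2 wild-type libraries (SA19 and SA28, coloured) and the 3 knockouts (grey), each panel with its own axis from 0. SA28 is lowest for RAG1, RAG2 and PTPRC and highest for MT2A, MT1X, TOP2A and DLGAP5, and SA19 is highest for CHAC1, SESN2, SLC7A11 and ASS1.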

How the data were processed

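Total RNA was sequenced from PF-382 cells. The authors deposited, per library, estimated counts per gene from RSEM after STAR (tools named without versions in the submitters' processing notes, builds GRCh38 and hg38), and TPM values scaled to a fixed sum; per the file headers both stand in 1 file. The annotation release, trimming, strand setting and replicate origin are not given in the sources used here. Expected counts were rounded (92.8% to 93.3% whole already), and 92 spike-in features, with 0 counts, were left out. The authors' TPM values served for an alternative ratio and for the implied fragment length.

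Counts were scaled by TMM over the 5 PF-382 libraries (edgeR 4.0.16, R 4.3.3), and ratios used a prior count of 2. Genes reaching 5 CPM in either one were compared, and those past 2-fold were called. With 1 library a side no test was made. Intervals (95%) and the floor of 3 counts (0.0857 CPM in SA19, 0.0889 in SA28) cover counting error only. DESeq2 1.42.0 size factors were an alternative. GENCODE 29 matched 58587 of 60662 genes. The ratio computation was tested on simulated data.

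The pair, defined by its labels, and the 34 gene lists were taken up with earlier results of these data known. Named genes were the 12 protein-coding genes with the largest ratio each way (whole counts, past 2-fold under every scaling), up to 5 per list, all V(D)J, cohesin, inducible heat shock and T-cell identity members, and small RNA genes of extreme ratio or high level. Other genes were named after their values were seen. The values of 1 small RNA family are not reported here.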

Additional observations from a re-analysis of the deposited data

How the results depend on the processing

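With 1 library a side no difference here has a replicate check, and leaving out a library was not possible. No paired analysis was possible because each side is 1 library. Low genes are limited by counting, and short RNAs by unknown library steps.

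On the authors' TPM values the median of all genes moved from 0.04 to 0.42, and small RNA genes took 74.6% of the TPM sum in SA19 and 63.1% in SA28. There 761 genes were higher in SA28 and 257 in SA19, and the medians were 0.62 (replication), 0.95 (mitotic kinases), 1.07 (spindle), 1.04 (heat shock), -0.49 (ATF4), 0.78 (V(D)J) and -0.27 (MHC). With TPM centred on the count median, an alternative chosen after seeing the data, 190 and 491 genes were called. None of the medians just listed then left the 95% order-statistic interval of its main value. Centring takes away the shared shift, and the interval treats genes of 1 library pair as independent, so no conclusion is drawn from this. IL7R, with 1 count in SA19, turned from 2.03 to -0.001. A minimum of 1 CPM gave 355 and 1136 genes, no minimum 1637 and 2641 (small RNA median -0.58), and a minimum of 10 CPM 329 towards SA19. Total counts gave 0.48 and 0.60 for mitotic kinases and spindle genes, and upper-quartile factors 0.77 for spindle and 0.51 for V(D)J genes. Level adjustment, also added after seeing the data, gave 0.09, 0.38, 0.47 and -1.12 (replication, mitotic kinases, spindle, ATF4), GC adjustment -0.52 for MHC, and both together 315 genes towards SA19 and 0.15, 0.42 and 0.44. The small RNA share without 7SK was 12.8% in SA19 and 7.29% in SA28, and relative to protein-coding counts 27.6% and 18.1%. Of 125 named genes past 2-fold, 101 to 125 stayed so under each of these scalings, with no other change of sign. Part of this was fixed in advance, since the 12 largest protein-coding genes each way were picked as past 2-fold under every count scaling. Copies of U2 with the same counts were also counted separately.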
